A study of Mus musculus with 7 samples.

Results

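Integrin and laminin genes were examined in bulk RNA-Seq of a mouse glioma model. They were taken as the rows of the normalized count table named as an integrin alpha subunit (Itga), an integrin beta subunit (Itgb) or a laminin alpha, beta or gamma chain (Lama, Lamb, Lamc) followed by a number, v or e. This gave 33 of the 19257 genes in the table: 14 integrin alpha subunits, 8 integrin beta subunits, 5 laminin alpha chains, 3 beta chains and 3 gamma chains. Leukocyte subunits with other letters (Itgal, Itgam, Itgax, Itgad) fall outside this naming and are given separately.

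The libraries came from endpoint tumors, 1 library per brain, in 2 groups. The 3xCR tumors (3 libraries, replicates 2, 3 and 4; genotype "control" in the labels) were made by in utero electroporation of a construct with Cas9 and guides that target several tumor suppressors, including Nf1 and Trp53, together with a piggyBac GFP reporter. The GPC6 tumors (4 libraries, replicates 1 to 4) carried the same guides and, in addition, a piggyBac construct overexpressing GPC6, a glypican (a heparan sulfate proteoglycan held at the cell surface by a lipid anchor). No library without these guides was analysed here. The animals were of CD-1 and C57BL/6 backgrounds and both sexes, and neither the background, the sex nor the age at endpoint is given for single libraries. Tumor tissue was taken under fluorescence microscopy from brain, and the labels call the cells neural. The electroporated progenitors line the lateral ventricles, and host blood vessels, microglia and neurons remain in such tissue, so a lower level in bulk RNA cannot be told apart as fewer cells of a type or as less RNA per cell.

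Integrins are transmembrane receptors made of 1 alpha and 1 beta subunit. They tie the cytoskeleton to the extracellular matrix or to other cells, and the pairing sets the ligand: laminin, collagen, proteins with an Arg-Gly-Asp (RGD) motif, or counter-receptors on leukocytes and endothelium. Laminins are secreted trimers of 1 alpha, 1 beta and 1 gamma chain and form the sheet-like core of basement membranes, which in brain surround vessels and lie under the pia. Gliomas are known to migrate along vessels and to carry laminin and RGD receptors.

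Between 7197692 and 18879762 reads fell on genes in each library (median 10566182), and a count of 0 reads allowed 1.64 to 4.64 normalized counts (3 reads, counting error only). Gpc6 itself was measured at 217, 226 and 126 normalized counts (reads divided by a size factor per library) in the 3xCR libraries and at 675, 263, 3434 and 5084 in GPC6 replicates 1 to 4 (189 ± 55.4, SD, n = 3, against 2364 ± 2296, SD, n = 4). All 4 GPC6 libraries lay above all 3 3xCR libraries (p = 0.057 in an exact permutation test, two-sided, which is the lowest p possible for groups of 3 and 4), but the library labelled GPC6 replicate 2 lay close to the 3xCR range. The species of the GPC6 sequence in the construct is not given in the sources used here, so the Gpc6 counts may miss part of its transcripts. GPC6 replicate 1 stood apart in tissue markers, with the highest summed level of 6 neuronal genes (50210.3 normalized counts, against 2696 to 23835 in the other 6 libraries) and of 6 choroid plexus and ependymal genes (12945, against 124 to 3963), and the lowest of 6 proliferation genes (479, against 3669 to 10301). Genes of brain tissue were present in every library, with a summed level of 6 oligodendrocyte genes from 12479 to 106054 and of 6 astrocyte genes from 11605 to 48249. Values with 1 of these libraries left out are given beside several results.

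No integrin or laminin gene passed the test between GPC6 and 3xCR tumors, and in every one the 2 groups overlapped. Of the 33 genes, 32 reached a mean of 10 normalized counts and were tested with limma on log2(normalized count + 1) over 14782 genes. Itgb6, which pairs with Itgav in epithelium, had at most 1 read in any library (0 reads in 4 of 7) and was not tested. None of the 32 passed an adjusted p of 0.05, as did none of all genes (0% of 14782). At an unadjusted p under 0.05 there was 1 of 32, Itgb5, lower in GPC6, where 4.66% of all genes (689) passed and 1.92% passed with a lower level. In none of the 32 did the groups fail to overlap, against 6.32% of all genes (934). On the recovered reads, edgeR and DESeq2 called none of the 32 at an adjusted p under 0.05 and each had 1 at an unadjusted p under 0.05, again Itgb5, where 6.70% of all genes in edgeR and 12.1% in DESeq2 had one.

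The log2 fold change (GPC6 minus 3xCR) was below 0 in 22 of the 32 genes, where it was below 0 in 51.7% of all genes. Its median was -0.35, against -0.02 over all genes, with a range from -1.54 (Itgae) to 1.35 (Lamb3). Lamb3 reached the mean of 10 only through its GPC6 libraries. The median moved to -0.14 without GPC6 replicate 1, -0.19 without 3xCR replicate 4, -0.21 without GPC6 replicate 4 and -0.56 without 3xCR replicate 2, and stayed below 0. It was below 0 in 16 of 21 integrins (median -0.53) and in 6 of 11 laminins (median -0.03). These genes share libraries and cell types and are not independent, so the counts carry no test. The 95% intervals of 31 of the 32 fold changes held 0, and 29 of the 32 reached a 2-fold difference in at least 1 direction, so for most of these genes 7 libraries could neither show nor bound a 2-fold difference.

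**Figure D1:**
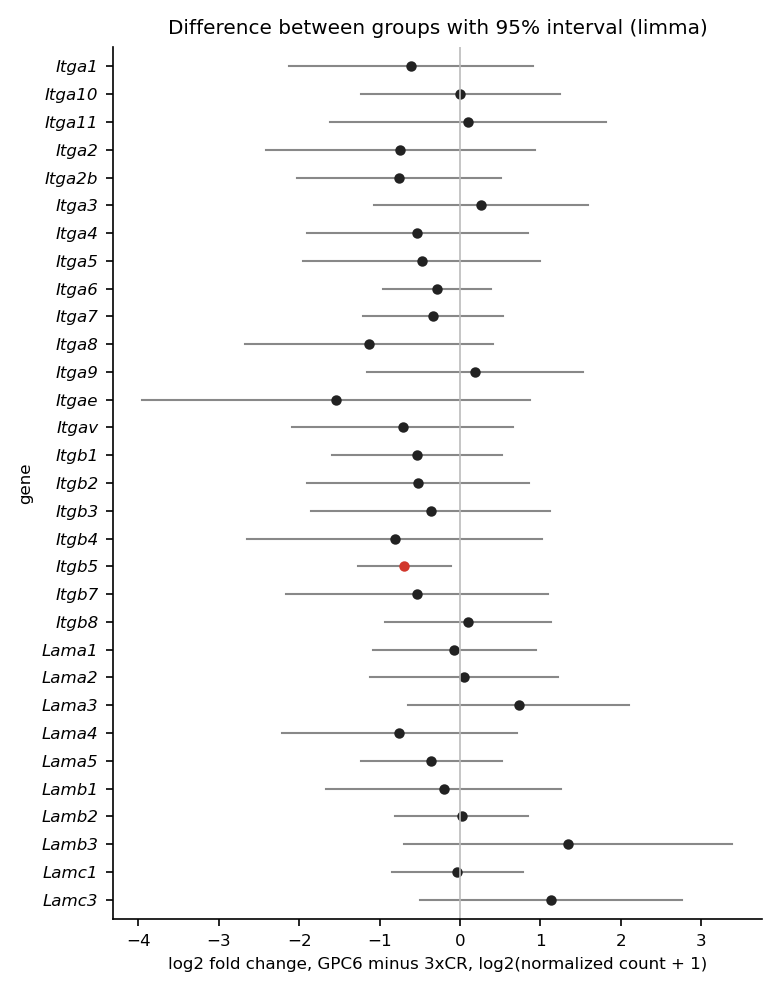
The log2 fold change of 31 of the 32 genes tested (GPC6 minus 3xCR, on log2(normalized count + 1)) is plotted as a point with its 95% limma interval as a line. Itgb5, in red, is the gene whose unadjusted p was under 0.05, and the intervals of the other genes cross 0.

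Itgb5, the partner of Itgav in a vitronectin receptor, lies on chromosome 16 (GRCm38, 16:33829665-33949338, plus strand). It was measured at 1899.8, 2889 and 3398 normalized counts in 3xCR replicates 2, 3 and 4, and at 1445, 1595, 1597 and 1983 in GPC6 replicates 1 to 4. The 4 GPC6 libraries were close together (1655 ± 229.7, SD, n = 4) and below the 3xCR mean (2729 ± 762, SD, n = 3), and the groups overlapped only in that GPC6 replicate 4 lay above 3xCR replicate 2. The log2 fold change was -0.69 with an SE of 0.25 (95% interval -1.27 to -0.11), at a limma adjusted p of 0.73 and an unadjusted p of 0.026 in the fit across all genes. Of the 32 genes Itgb5 had the smallest spread within groups, with a pooled SD of 0.31 on the log2 scale against a median of 0.92. The library labelled GPC6 replicate 2, whose Gpc6 was low, had an Itgb5 level like the other 3. The unadjusted limma p across all genes rose to 0.051 without GPC6 replicate 2, 0.057 without GPC6 replicate 3, 0.086 without 3xCR replicate 3 and 0.10 without 3xCR replicate 4, with the fold change below 0 each time. Microglial markers were also lower in the GPC6 tumors: the summed level of 6 genes ran from 8887 to 10908 in 3xCR and from 5105 to 7811 in GPC6, and microglia are known to express Itgb5. The part of microglia in the Itgb5 difference was not tested.

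Itgb1, the beta subunit shared by the laminin and collagen receptors and many RGD receptors, was the most abundant of the 33 genes per length of exon in the GENCODE gene models. The mean over the 7 libraries was 1096 normalized counts per kb, ahead of Itgb5 (595), the leukocyte subunit Itgb2 (389) and Itgav (171). Itgb1 was measured at 4283, 4988 and 6202 normalized counts in the 3xCR libraries and at 1543, 5987, 3382 and 4914 in GPC6 replicates 1 to 4. GPC6 replicate 1 was the lowest of the 7 by more than 2-fold and of the other 3 GPC6 libraries 2 lay within the 3xCR range and 1 below it. The log2 fold change was -0.53 with an SE of 0.46 (limma adjusted p = 0.75), and -0.14 without GPC6 replicate 1.

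**Figure D2:**
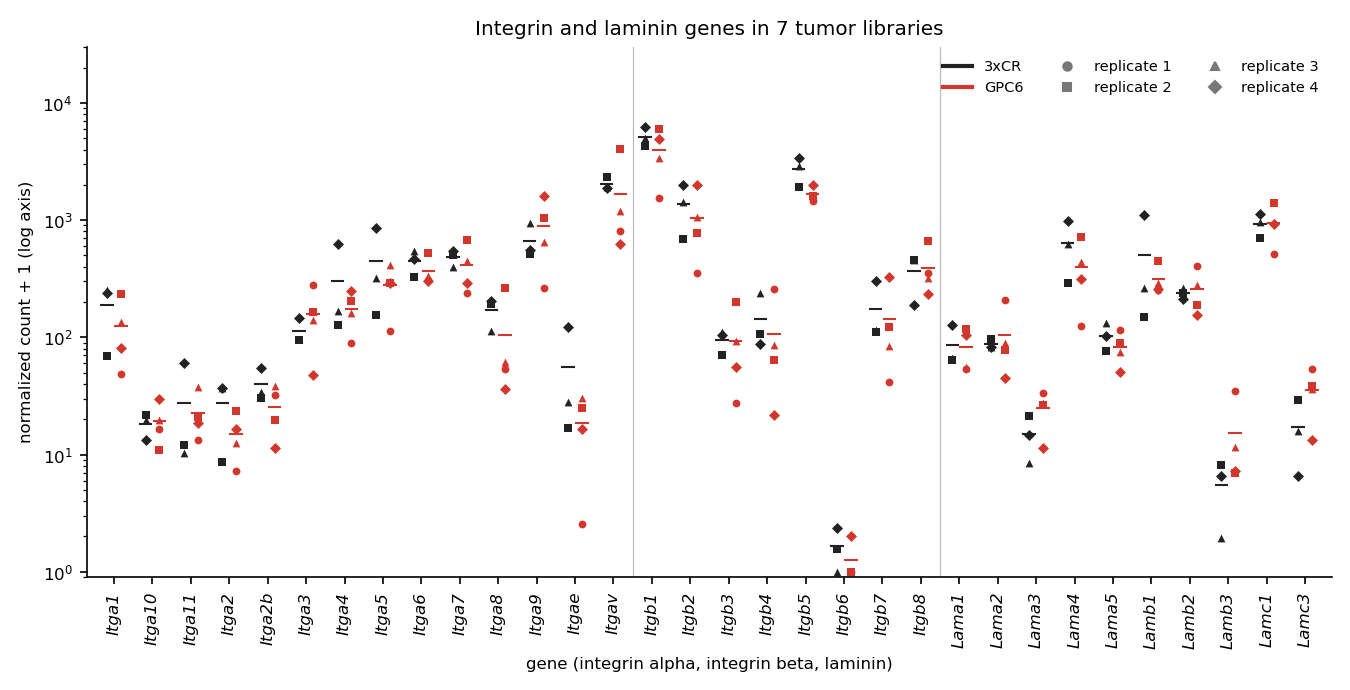
Normalized count + 1 (log axis) of 32 of the 33 genes in each library, 3xCR in black and GPC6 in red, with a marker shape per replicate and a bar at the group mean. For every gene tested the 2 groups overlap, and Itgb6 sits at the bottom with at most 1.38 normalized counts.

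The other partners of Itgav did not differ beyond their spread. Itgb8, which with Itgav activates latent TGF-beta in brain and is known from astrocytes and neural progenitors, was measured at 455, 455 and 188 normalized counts in 3xCR and at 354, 662, 321 and 235 in GPC6. 3xCR replicate 4 was the lowest of the 7 and the library labelled GPC6 replicate 2 the highest, and the other 5 lay between them (log2 fold change 0.11, SE 0.45, limma adjusted p = 0.95). Its sign turned without either of these libraries (-0.32 and -0.18). Itgb3, the vitronectin receptor subunit of angiogenic endothelium and platelets, ran from 69.6 to 111 in 3xCR and from 26.3 to 199 in GPC6. The summed level of 5 platelet genes ran from 56.7 to 555 in 3xCR and from 74.1 to 421 in GPC6, mostly Gp1bb except in GPC6 replicate 4, while Gp9, Treml1 and Ppbp were at 0 to 3.72 normalized counts in every library. Itga2b, the platelet partner of Itgb3, was at 10.3 to 53.9.

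Among the RGD-binding alpha subunits (Itgav, Itga5, Itga8, Itga2b) all 4 had a log2 fold change below 0, with a median of -0.74, and none passed the test. Itgav, the receptor subunit for vitronectin and latent TGF-beta, was the alpha subunit of highest level. It was measured at 2350.3, 1913 and 1884 normalized counts in 3xCR and at 799, 4068, 1192 and 620.4 in GPC6 replicates 1 to 4. The 3 3xCR libraries lay within 1.25-fold of each other. The GPC6 libraries spanned 6.56-fold, with 3 below the 3xCR range and the library labelled GPC6 replicate 2 above it (log2 fold change -0.71, SE 0.59, limma adjusted p = 0.75). Itga8, which binds nephronectin, showed the same arrangement: 113 to 203 in 3xCR, 265 in the library labelled GPC6 replicate 2, and 34.98 to 60.3 in the other 3 GPC6 libraries.

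Without the library labelled GPC6 replicate 2, Itgav and Itga8 became the 2 genes of the 32 at an unadjusted p under 0.05 (9.45% of all genes in that fit) and the 2 whose groups did not overlap (16.1% of all genes). Both were lower in GPC6, Itgav with a log2 fold change of -1.28, and neither passed adjustment (limma, smallest adjusted p among the 32 0.53). In both genes this was the 1 GPC6 library above the 3xCR range, so leaving it out removed the overlap by construction. Besides its low Gpc6, this library had the highest oligodendrocyte sum (106054, against 12479 to 94444 elsewhere). It also had the highest Pdgfra (17225, against 2309 to 7730 elsewhere). The part of Gpc6 level or tissue make-up in these values was not tested. Itga5, the classical fibronectin receptor, was governed by another library, with 155, 320 and 856 in 3xCR against 113 to 414 in GPC6; 3xCR replicate 4 was the only one above the GPC6 range.

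The laminin-binding alpha subunits Itga3, Itga6 and Itga7 and the hemidesmosome subunit Itgb4 had 3 of 4 fold changes below 0 (median -0.31). Itga6, the laminin receptor best known from glioma stem-like cells and endothelium, was the steadiest alpha subunit, between 329 and 541 in 3xCR and between 301 and 528 in GPC6 (log2 fold change -0.29, 95% interval -0.96 to 0.38). This interval does not reach a 2-fold difference in either direction, and the same held for Lamb2 and Lamc1. Itga7, the laminin receptor of muscle and glia, ran from 401 to 548 in 3xCR and from 236 to 682 in GPC6.

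Itga3 had the highest fold change of the alpha subunits. It was measured at 93.2, 95.8 and 146 normalized counts in 3xCR and at 278, 164, 139 and 46.3 in GPC6 replicates 1 to 4. GPC6 replicate 1 was the highest and GPC6 replicate 4 the lowest of all 7 libraries, with the 3xCR libraries between them (log2 fold change 0.26, SE 0.58, limma adjusted p = 0.90). Without GPC6 replicate 1 the sign turned, to -0.10. Itgb4, which pairs only with Itga6, was measured at 106, 236 and 87.0 in 3xCR and at 257, 63.2, 85.2 and 20.6 in GPC6. Here too GPC6 replicate 1 was the highest and GPC6 replicate 4 the lowest, a 12.5-fold span within 1 group (log2 fold change -0.81, SE 0.79, limma adjusted p = 0.78). The fold change was -0.22 without GPC6 replicate 4, -0.38 without 3xCR replicate 3 and -1.41 without GPC6 replicate 1. Without GPC6 replicate 1, Itgb4 was the 1 gene of 31 whose groups did not overlap, the 3 GPC6 libraries lying below the 3xCR libraries, against 9.10% of all genes in that fit.

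The collagen-binding subunits Itga1, Itga2, Itga10 and Itga11 were low, at 2.72 to 8.12 normalized counts per kb on average, with 2 of 4 fold changes below 0. Itga1, the most abundant of them, ran from 68.5 to 254 normalized counts in 3xCR and from 47.9 to 234 in GPC6. Itga4 and Itga9, receptors for VCAM1 and fibronectin or tenascin, had fold changes of opposite sign, neither past the test. Itga4, largely a leukocyte subunit, had a fold change of -0.53 on the log2 scale and was highest in 3xCR replicate 4 (619, against 88.1 to 246 in the other 6). Itga9 had one of 0.19 and was highest in GPC6 replicate 4 (1612, against 264 to 1037 in the other 6).

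The leukocyte subunits Itgae, Itgb2 and Itgb7 had 3 of 3 fold changes below 0 (median -0.53) with none past the test. Itgae, which with Itgb7 forms the E-cadherin receptor of tissue-resident T cells, was the integrin of largest decrease by value. Its levels were 15.9, 27.0 and 122 normalized counts in 3xCR and 1.55 (1 read), 23.7, 29.3 and 15.4 in GPC6. The lone high library was 3xCR replicate 4 and the lone low one GPC6 replicate 1, and the other 5 lay together between 15.4 and 29.3 (log2 fold change -1.54, SE 1.04, limma adjusted p = 0.73). Without 3xCR replicate 4 the fold change was -0.71, and without GPC6 replicate 1 it was -0.75. Itgb2, the beta subunit of all leukocyte beta-2 integrins, ran from 693 to 2004 in 3xCR and from 352 to 1997 in GPC6, and Itgb7 from 109.6 to 301 and from 40.2 to 324.

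Outside the naming rule, the 4 leukocyte alpha subunits tested likewise had fold changes below 0 (4 of 4, median -0.33). Itgax, a dendritic cell and microglial subunit, was the 1 of these 4 whose groups did not overlap (6.32% of all genes), at 667 to 706 in 3xCR and 117 to 592 in GPC6 (limma adjusted p = 0.73). Itgam, the microglial and myeloid subunit, overlapped widely, at 746 to 1130.2 and 284 to 1602. The summed level of 6 macrophage and monocyte genes was 33933 in 3xCR replicate 4, 614 in GPC6 replicate 1 and 2298 to 11201 in the other 5 libraries, and that of 5 T cell genes was 1425 in 3xCR replicate 4, 119 in GPC6 replicate 1 and 212 to 368 in the others. These are the libraries where Itgae, Itgb2 and Itgal (1097 and 155) were highest and lowest. Itgb2 was nearly as high in GPC6 replicate 4 (1997) as in 3xCR replicate 4 (2004). Itgb7 was lowest in GPC6 replicate 1 but highest in GPC6 replicate 4 (324, against 301 in 3xCR replicate 4). Itgax and Itgam were also lowest in GPC6 replicate 1. In 3xCR replicate 4, Itgax was the lowest of the 3xCR group (667) and Itgam was at 981. Itgad was highest in GPC6 replicate 1 (49.5). The part of leukocyte number in the integrin values was not tested.

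Laminin chains were grouped by the membranes they are best known from. Lama4, Lama5, Lamb1 and Lamc1, which build the trimers of the endothelial basement membrane, had 4 of 4 fold changes below 0 (median -0.28) and none passed the test. Lama4 was the alpha chain of highest level and of largest decrease by value. Its 3xCR libraries stood at 289, 624 and 979 normalized counts and GPC6 replicates 1 to 4 at 124, 716, 442 and 313. GPC6 replicate 1 was the lowest and 3xCR replicate 4 the highest, and the remaining 5 libraries of both groups were interleaved (log2 fold change -0.75, SE 0.63, limma adjusted p = 0.75). Single libraries moved this value to -0.28 (without GPC6 replicate 1), -0.35 (without 3xCR replicate 4) and -1.23 (without 3xCR replicate 2).

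Lamb1, the beta chain of both endothelial laminins, was measured at 147, 261 and 1099 in 3xCR and at 252, 449.5, 288 and 256 in GPC6. The 3xCR mean (503 ± 520.1, SD, n = 3) rested on replicate 4, which was more than 2-fold above every other library (log2 fold change -0.20, SE 0.63, limma adjusted p = 0.93). Without 3xCR replicate 4 the fold change was 0.62. Lamc1, the gamma chain of nearly all brain laminins, was measured at 696, 972 and 1126 in 3xCR and 515, 1392, 963 and 926 in GPC6 (931 ± 218, SD, n = 3, against 949 ± 359, SD, n = 4). Its log2 fold change was -0.03 with an SE of 0.35, a 95% interval of -0.84 to 0.78 and a limma adjusted p of 0.98. The sign of this value depended on the scaling and on the method. It was above 0 with equal totals (0.016), in edgeR (0.02) and in DESeq2 (0.04), and below 0 in voom (-0.05).

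The summed level of 6 endothelial genes ran from 629 to 1732 in 3xCR and from 1116 to 1726 in GPC6, with 5 of 6 fold changes above 0. That of 8 mural cell genes ran from 2836 to 3538 in 3xCR and from 2070 to 5661 in GPC6. The most abundant of these 8 was Cspg4, which is also an oligodendrocyte precursor gene. It ran from 1030 to 2427 in 3xCR and from 1032 to 4340 in GPC6, so the mural sum is no clean measure of mural cells. In 3xCR replicates 2, 3 and 4 the endothelial sum was 629, 1482 and 1732. Lama4, Lamb1 and Lamc1 had the same order there, and Lama5 (75.1, 131 and 101) did not. In GPC6 replicates 1 to 4 the sum was 1116, 1585, 1726 and 1287. There Lama4, Lamb1 and Lamc1 were each highest in replicate 2, and Lama5 was highest in replicate 1. The sum of 6 meningeal and perivascular fibroblast genes, of which Pdgfra is also a glioma and oligodendrocyte precursor gene, was 30048 in 3xCR replicate 4, 3538 in GPC6 replicate 1 and 3972 to 19739 in the others. Within it Col1a1, a fibrillar collagen chain singled out after its values were seen, was at 9756 in 3xCR replicate 4 and at 40.2 to 1073 in the other 6 libraries. The part of vessels and fibroblasts in the laminin values was not tested.

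Lama1, Lama2 and Lamb2, chains of the parenchymal and pial basement membrane made by astrocytes and leptomeninges, had fold changes near 0 (median 0.02, from -0.07 to 0.05). Lama2 was nearly constant in 3xCR, at 81.5 to 95.4, and spread from 44.2 to 209 in GPC6. Lama3 and Lamb3, alpha and beta chains known from epithelial laminin, were near the foot of the levels, at 1.82 and 1.52 normalized counts per kb on average. Lama3 was measured at 20.3, 7.44 and 13.8 normalized counts in 3xCR and at 32.5, 25.7, 26.6 and 10.3 in GPC6. In 3 of 4 GPC6 libraries it lay above the 3xCR range, and GPC6 replicate 4 lay within it (log2 fold change 0.73, SE 0.60, limma adjusted p = 0.75).

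Lamb3 had the largest fold change of the 32 genes by value, 1.35 with an SE of 0.88 (limma adjusted p = 0.73), and among the lowest levels. Its mean over the 7 libraries was 10.05, just over the minimum of 10, with 14.2 in GPC6 and 4.53 in 3xCR. Lamb3 thus entered the test only through the group where it was higher, and its place at the top of the range carries no weight. It was measured at 7.13, 0.93 (1 read) and 5.52 normalized counts in 3xCR and at 34.0, 5.93, 10.6 and 6.17 in GPC6. GPC6 replicate 1 was the lone high library and 3xCR replicate 3 the lone low one, and without GPC6 replicate 1 or 3 the gene fell under the minimum mean and was not tested.

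Lamc3, a gamma chain of vascular and meningeal laminins, was measured at 28.0, 14.9 and 5.52 normalized counts in 3xCR and at 52.6, 37.5, 35.5 and 12.3 in GPC6. As for Lama3, 3 of 4 GPC6 libraries lay above the 3xCR range and GPC6 replicate 4 did not (log2 fold change 1.13, SE 0.71, limma adjusted p = 0.73). Without GPC6 replicate 4 the groups of Lama3, Lamc3 and Itgb5 did not overlap, 3 of 32 genes against 14.4% of all genes.

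**Figure D3:**
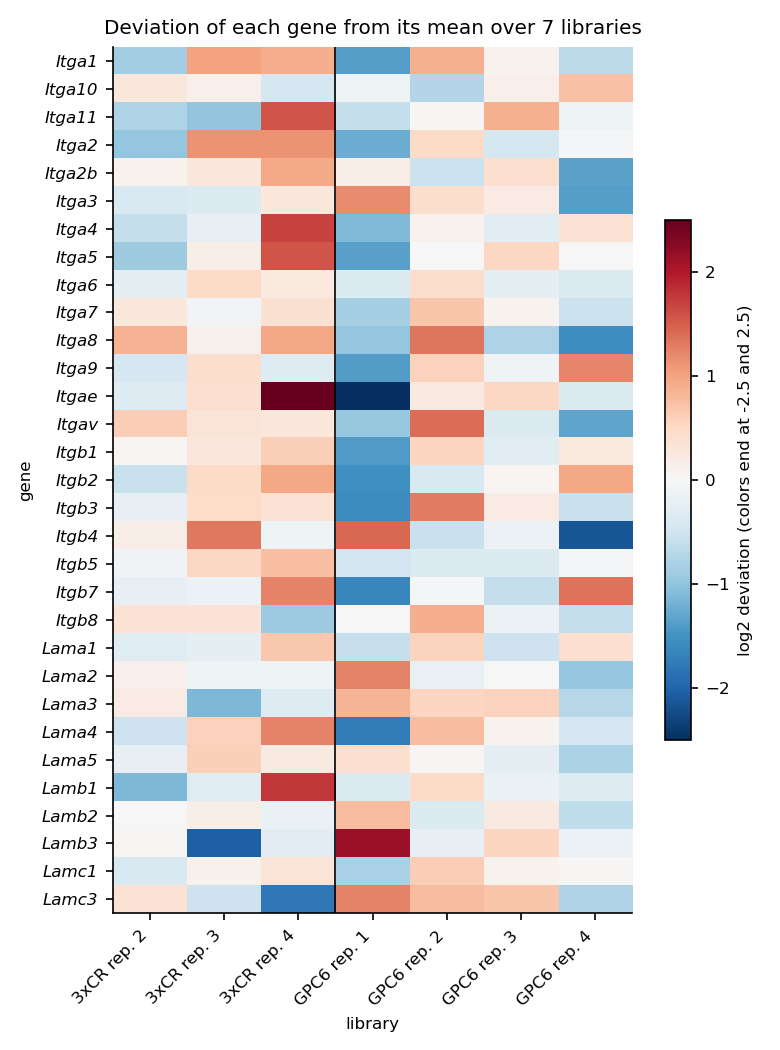
Log2 deviation of 31 of the 32 genes tested from its own mean over the 7 libraries, red above and blue below, with a line between the 3xCR (left) and GPC6 (right) libraries. GPC6 replicate 1 is blue for most integrins and red for Itga3, Itgb4, Lama2, Lama3, Lamb2, Lamb3 and Lamc3, and 3xCR replicate 4 is red for Itga4, Itga5, Itga11, Itgae, Itgb7, Lama4 and Lamb1.

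Single tumors of a group lay far apart in these genes. The pooled SD within groups had a median of 0.92 on the log2 scale over the 32 genes, against 0.50 over all genes tested, and it was higher in both groups (0.83 against 0.53 in GPC6, 0.53 against 0.35 in 3xCR). These figures describe the spread and carry no test. It was smallest in Itgb5 (0.31), Itga6 (0.38), Lama5 (0.46), Lamb2 (0.49) and Lamc1 (0.51), and largest in Itgae (1.58), Itgb4 (1.24) and Lamb3 (1.10).

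GPC6 replicate 1 held the lowest value of the 7 libraries for 15 of the 32 genes and the highest for 7. The 15 were 12 integrins and the laminins Lama1, Lama4 and Lamc1, and the 7 were Itga3, Itgb4 and 5 laminins. The median deviation in this library was accordingly -0.97 for the integrins and 0.63 for the laminins, on the log2 scale, while that of all genes was -0.02. 3xCR replicate 4 held the highest value for 11 of the 32: Itga2b, Itga4, Itga5, Itga11, Itgae, Itgb1, Itgb2, Itgb5, Lama1, Lama4 and Lamb1. The library labelled GPC6 replicate 2 held the highest for 6 (Itga7, Itga8, Itgav, Itgb3, Itgb8 and Lamc1), and GPC6 replicate 4 held the lowest for 9. GPC6 replicate 1 and 3xCR replicate 4 are also the libraries at the ends of the macrophage and T cell sums given above, and GPC6 replicate 1 that of the neuronal and choroid plexus markers. The part of tissue make-up in the spread was not tested.

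The gene with the largest share of its class was often the same in both groups. Taken as shares of normalized counts per kb within a class, Itgb1 made up 38.3% to 63.3% of the integrin beta level, Itgb5 19.4% to 41.2% and Itgb2 11.1% to 25.5%, and these 3 were the top 3 in every library. Itgb1 was first in 6 of the 7, and in GPC6 replicate 1 Itgb5 was. Lamc1 made up 81.2% to 96.1% of the gamma level and Lamc3 0.64% to 11.3%. Among the laminin alpha chains Lama4 led in 6 of the 7 libraries (53.4% to 74.3%). In GPC6 replicate 1 it made up 24.7%, and Lama2 led there with 30.8%, followed by Lama4 and Lama5 (24.2%).

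Itgav led the integrin alpha class in 6 libraries (24.7% to 45.9%), narrowly so in 3xCR replicate 4, where Itga5 came to 24.6%. In GPC6 replicate 4, Itga9 led with 47.0% and Itgav made up 12.9%, and in GPC6 replicate 1 Itga3 reached 17.9%, against 1.82% to 5.43% in the other 6. The lead in the beta laminin class passed between Lamb2 (23.7% to 71.1%) and Lamb1 (26.0% to 75.7%), with Lamb1 ahead in 3xCR replicate 4, in the library labelled GPC6 replicate 2 and, by under 1 percentage point, in GPC6 replicate 4. Both groups had libraries led by each of the 2 chains.

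**Figure D4:**
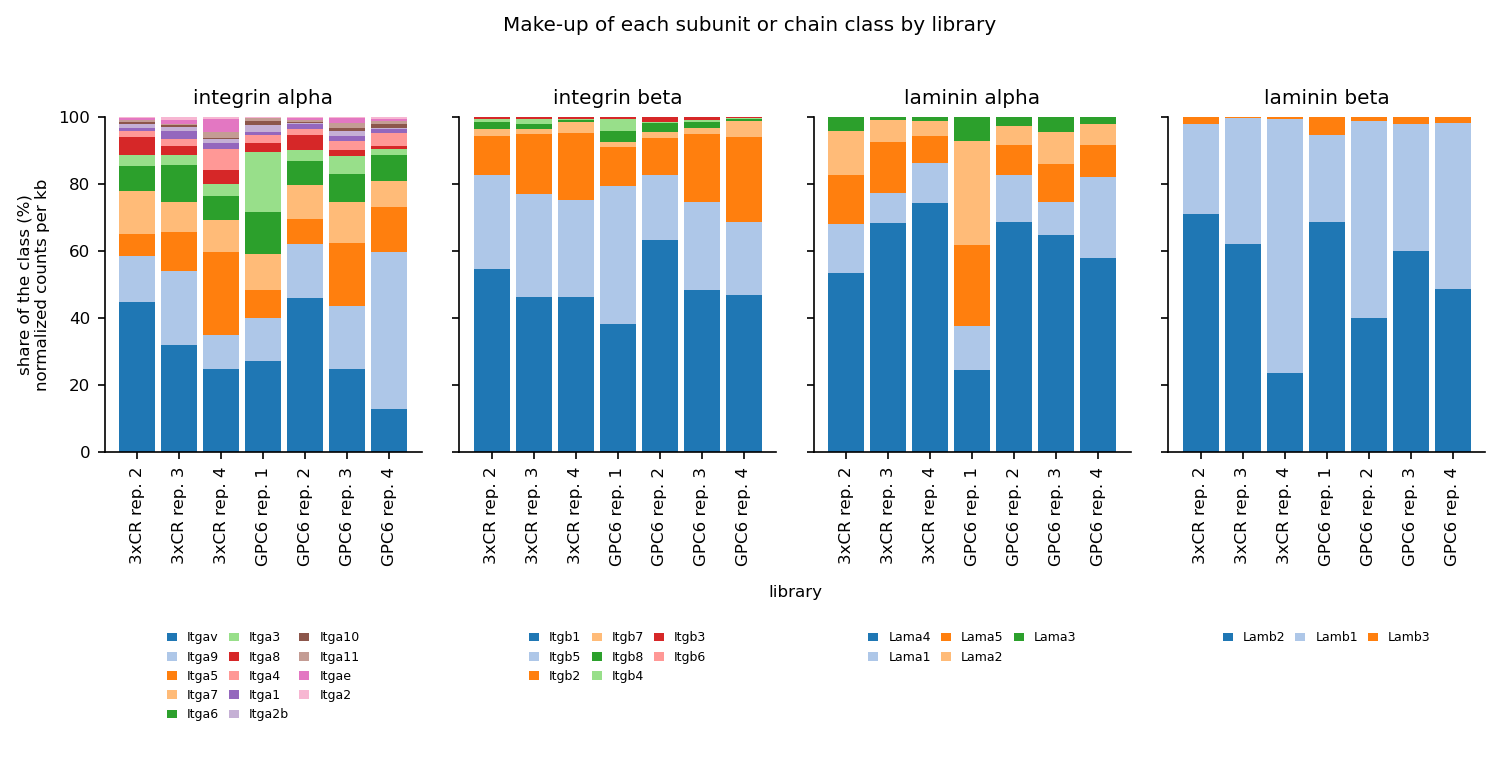
Share (%) of each gene in the summed normalized counts per kb of its class, for each library, in 4 panels (integrin alpha, integrin beta, laminin alpha, laminin beta). Itgb1 leads its class in all libraries but GPC6 replicate 1, Lama2 leads the laminin alpha class in GPC6 replicate 1 (30.8%), and Itga9 leads the integrin alpha class in GPC6 replicate 4 (47.0%).

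Partners of the integrins and laminins were read from lists of other pathway genes, and none of those tested passed an adjusted p of 0.05 in limma. Of the basement membrane partners (type IV and other collagens, nidogens, perlecan, agrin), 8 of 11 had fold changes below 0, with a median of -0.10. Agrn, the heparan sulfate proteoglycan agrin, was the most abundant of them, at 1919 to 2139 normalized counts in 3xCR and 1453 to 3632 in GPC6. Col18a1, the source of endostatin, had the lowest fold change, -0.996 on the log2 scale with an SE of 0.88. Of the laminin receptors that are not integrins, including dystroglycan and its partners, 7 of 9 were below 0 (median -0.05), with values from -0.76 (Sgcd, a sarcoglycan) to 0.31 (Dmd, dystrophin).

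Of the other integrin ligands tested, 13 of 20 had fold changes below 0 (median -0.18). Vcam1, the counter-receptor of Itga4 and Itga9, was the most abundant, at 1834 to 4495 normalized counts in 3xCR and 1097 to 5690.4 in GPC6. Postn, the matrix protein periostin, ran from 49.9 to 4217 within 3xCR alone and from 38.1 to 372 in GPC6. Tnr, the neural matrix protein tenascin-R, had the highest fold change, 0.85 on the log2 scale with an SE of 0.49.

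Of the intracellular activators and adaptors that link integrins to actin, 17 of 22 had fold changes below 0 (median -0.21). Ptk2, the focal adhesion kinase, was chosen after its values were seen, as the 1 gene of 22 whose groups did not overlap, where 6.32% of all genes did not. It was higher in GPC6, at 969.6 to 1146 normalized counts in 3xCR and at 1354, 1360.4, 1146 and 1720.2 in GPC6 (log2 fold change 0.40, SE 0.20, limma adjusted p = 0.73). The lowest GPC6 library and the highest 3xCR library were within 1 normalized count of each other. Its relative Ptk2b had the largest fold change, 1.01 with an SE of 0.80, on a level of 6835 in GPC6 replicate 1 and 521 to 2753 in the other 6.

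The genes of latent TGF-beta, which Itgav heterodimers can activate, and of its carriers had 7 of 8 fold changes below 0 (median -0.44). Ltbp1, a carrier that anchors latent TGF-beta in the matrix, was the 1 gene of these 8 at an unadjusted p under 0.05, as were 4.66% of all genes. It was measured at 160.1, 109.8 and 488 normalized counts in 3xCR and at 94.3, 114, 78.1 and 34.0 in GPC6. The groups overlapped only in that the library labelled GPC6 replicate 2 lay above 3xCR replicate 3, and 3xCR replicate 4 was again the highest (log2 fold change -1.47, SE 0.61, limma adjusted p = 0.73).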

How the data were processed

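Bulk RNA-Seq of endpoint tumors was compared between 3 3xCR and 4 GPC6 libraries, grouped by the sample titles. Per the methods and the submitters' processing notes, the authors prepared stranded poly(A) libraries, aligned the reads with STAR 2.5.0a to mm10, counted reads per gene with Rsamtools and GenomicFeatures and divided the counts by DESeq2 1.20.0 size factors. The deposited values are these normalized counts, a linear signal that is not corrected for gene length, and all 7 columns were used (0 further columns). How reads shared by overlapping or near-identical genes were counted is not given in the sources used here. The methods and the labels also differ in the RNA kit and amount, which entered no calculation.

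Of 19282 rows, 25 with names turned into dates (0.254% to 0.361% of the reads) were left out, which leaves 19257 genes. Whole reads were recovered from the value of 1 read in each library, with 100% of values within 0.01 of a whole number. Depth ranged from 7197692 to 18879762 reads on genes, and the shallowest library sets the limit for genes with few reads.

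The comparison used limma 3.58.1 in R 4.3.3 with an intensity trend on log2(normalized count + 1), two-sided, for 14782 genes whose mean was at least 10, with Benjamini-Hochberg adjustment over all of them. A fold change on this scale understates that of low genes. Gpc6 was compared with a two-sided exact permutation test. Alternatives were edgeR 4.0.16 (quasi-likelihood), DESeq2 1.42.0 (Wald) and voom on the recovered reads, pseudocounts of 0.5 and 5, no filter or a mean of 50, equal totals or upper quartiles, no or a robust trend, weights per library, each library left out, and a block for the replicate number. Leaving out both GPC6 replicates 1 and 2 was added after seeing the data. The fits were also run on simulated counts drawn independently for each gene, and the outcome is not given here. Such counts do not mimic shifts shared by many genes of a library. Replicates are separate brains, and the p-values set a group difference against the spread between these tumors, which limma moderates across genes. The labels name no batch, litter or day.

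Levels per kb were divided by the exon length of GENCODE gene models (GRCm38), with all 33 genes matched by symbol. Values in every library are given for genes whose groups did not overlap, with an unadjusted p under 0.05, or with the highest mean or the largest or smallest log2 fold change of their class, and 1 gene that met this rule is not reported here. In each list of other genes, the most abundant gene and those at both ends of the fold changes could be named. The genes and lists were chosen with earlier results of these data known, and the lists, written by hand, are described by counts with no set test.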

Additional observations from a re-analysis of the deposited data

How the results depend on the processing

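With 3 against 4 tumors, a fold change under 2 could be bounded for 3 of the 32 genes, and genes near 10 normalized counts rest on few reads. The calls turned mainly on weights per library (limma arrayWeights), which put 1962 of all genes and 3 of the 32 (Itgb5 at -0.80, adjusted p = 0.029; Lama3 at 1.47; Lamb3 at 2.30) at an adjusted p under 0.05 and 12 of the 32 at an unadjusted one, as were 34.5% of all genes. DESeq2 called 9 of all genes and none of the 32, and no other alternative called a gene of either set. Leaving out 1 library gave 0 to 2 of the 32 at an unadjusted p under 0.05 and 0 to 4 whose groups did not overlap; the 4, without 3xCR replicate 2, were Itga1, Itga2, Itgb5 and Lamb3, where 20.9% of all genes did not overlap. Leaving out both GPC6 replicates 1 and 2 gave 2 (Itga8 and Itgav, against 6.09% of all genes) and 4 (with Itgb4 and Lama5, against 23.7% of all genes). The median log2 fold change of the 32 stayed below 0, from -0.56 without 3xCR replicate 2 to -0.13 with a replicate block. Of the 13 genes given in every library, 4 changed sign. Leaving out 1 library moved Itga3 between -0.10 and 0.76, Itgb8 between -0.32 and 0.32, Lamb1 between -0.82 and 0.62 and Lamc1 between -0.24 and 0.23. Weights per library gave -0.38 for Itgb8, 0.14 for Lamb1 and 0.011 for Lamc1. Without both GPC6 replicates 1 and 2, Itga3 was at -0.44, Itgb8 at -0.30 and Lamc1 at 0.048, and Lamc1 was at 0.016 with equal totals, 0.018 in edgeR and 0.040 in DESeq2. Among the genes that kept their sign, leaving out 1 library moved Itgav between -1.28 and -0.38, Itgae between -2.14 and -0.71 and Itgb1 between -0.79 and -0.14. It moved Lama3 between 0.37 and 1.07 and Lamc3 between 0.56 and 1.64. Lamb3 moved between 0.71 and 1.75 where it was tested. It was not tested without GPC6 replicate 1, its highest library, or without GPC6 replicate 3. With all libraries Lamb3 passed the minimum mean only through its GPC6 level, which also limits its call with weights per library. The causes were not tested. The replicate numbers gave no pairing: deviations of same-numbered libraries correlated at -0.19, 0.12 and 0.30 (across genes), and 1 of the 3 3xCR libraries correlated best with its own number. With the replicate block, 2 of the 32 (Itgb4 and Itgb5) had an unadjusted p under 0.05 (4.59% of all genes), Itga3 was at -0.10 and Lamc1 at 0.23. GPC6 replicate 1 is alone in its block and adds nothing to the group difference. The fold changes with the block therefore repeat those without GPC6 replicate 1 and are no separate result.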
